A study of Mus musculus with 9 samples.

Results

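Hearts of double-heterozygous mouse pups were compared with hearts of *miR-1-1* null pups, both carrying *miR-1* deletions that leave a different pair of alleles intact. The comparison takes 6 of the 9 arrays in the series, 3 for each of these genotypes, chosen by their labelled genotype, and the 3 wild-type arrays are given beside them. Double-heterozygous pups (*miR-1-2* +/-: *miR-1-1* +/-) had lost a single copy of each *miR-1* gene. The *miR-1-1* null pups had lost both copies of *miR-1-1* and none of *miR-1-2*. In the targeted *miR-1-1* allele, which both genotypes carry, a floxed neomycin resistance gene under a pGK promoter replaced the precursor. All pups were on a mixed 129 x C57BL/6 background, and whole hearts were taken at postnatal day 2. The labels give no litter, sex or pool for a sample, so the p-values below measure the spread between these arrays, and in RNA of a whole heart fewer cells of a type and less RNA per cell cannot be told apart.

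MicroRNAs are short RNAs that pair through a seed near their 5′ end with messenger RNAs and lower their stability or translation. *miR-1* is an abundant microRNA of heart and skeletal muscle and is made from 2 genes, each transcribed together with a gene for *miR-133a*. *Mir1a-1* and *Mir133a-2* form the *miR-1-1* cluster, and *Mir1a-2* and *Mir133a-1* form the *miR-1-2* cluster, which lies within the *Mib1* gene. Another cluster, *Mir206* and *Mir133b*, encodes close relatives of both microRNAs and is used mainly in skeletal muscle. The comparison of double-heterozygous with null hearts therefore sets a loss spread over both clusters against the full loss of one of them.

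The RefSeq sequences (GRCm38.p6) of 3 mature microRNAs of these families are given to show what the clusters encode, with the seed, bases 2 to 8, in capitals. The passenger arm of *Mir1a-1* comes from the deleted precursor (chr2:180389057-180389079, plus strand). The relatives come from the *Mir206* cluster, *miR-206* at chr1:20679055-20679076 and *miR-133b* at chr1:20682834-20682855, both on the plus strand.
mmu-miR-1a-1-5p: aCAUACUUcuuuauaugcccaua
mmu-miR-206-3p: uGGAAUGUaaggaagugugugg
mmu-miR-133b-3p: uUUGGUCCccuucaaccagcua
The probe sets of the array read precursor transcripts and not these mature forms.

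The precursors of the 2 clusters moved in opposite directions between the genotypes. *Mir133a-2*, the partner of *miR-1-1*, was at log2 levels of 6.32, 5.33 and 5.87 in double-heterozygous hearts, against 4.51, 3.79 and 3.07 in null hearts. Its wild-type arrays read 5.63, 6.38 and 5.45. Every double-heterozygous array lay above every null array and within or close to the wild-type range. The log2 fold change of double-heterozygous over null hearts was 2.05 (standard error 0.39), a 4.14-fold higher level, and the limma adjusted p was 0.322. Without double-heterozygous replicate 7 it was 1.81 and no longer met the study's p threshold, which is described below. *Mir133a-1*, the partner of *miR-1-2*, was at 4.43, 4.00 and 4.22 in double-heterozygous hearts, against 6.16, 5.54 and 5.66 in null hearts and 6.37, 6.09 and 5.42 in wild-type hearts. Here the null arrays lay in the wild-type range and the double-heterozygous arrays lay below both. The log2 fold change was -1.57 (standard error 0.25), with a limma adjusted p of 0.180, so that the null level was 2.96-fold that of double-heterozygous hearts.

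A pair of probe sets is listed for both *Mir1a-2* and *Mir1b*, a precursor annotated at the same place, and these probe sets were left out of the table of single genes. The brighter read 8.56, 8.37 and 8.58 in double-heterozygous hearts, against 9.75, 9.30 and 9.22 in null hearts, a log2 fold change of -0.92 (standard error 0.16). The dimmer read 1.48, 2.34 and 2.06 in double-heterozygous hearts, against 3.46, 2.90 and 3.68 in null hearts, a log2 fold change of -1.38 (standard error 0.26). Neither overlapped between the genotypes, and the limma adjusted p over every probe set was 0.238 for the brighter and 0.295 for the dimmer. *Mir1a-1* itself was dim, at 1.52, 1.46 and 0.92 in double-heterozygous hearts and 1.06, 0.95 and 1.29 in null hearts, and its log2 fold change of 0.20 (standard error 0.24) was smaller than the spread between arrays. The *Mir1a-1* probe set was therefore not able to order the genotypes that keep a single copy and no copy of this gene.

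Other transcripts of the clusters did not separate the genotypes. *Mir1a-1hg*, which hosts the *miR-1-1* cluster, read 6.79, 6.90 and 7.18 in double-heterozygous hearts, against 7.22, 7.36 and 6.71 in null hearts, with a log2 fold change of -0.14 (standard error 0.19). Both genotypes lay above the wild-type arrays, at 6.07, 5.82 and 5.62. *Mib1*, an E3 ubiquitin ligase of the Notch pathway, differed by -0.16 on the log2 scale (standard error 0.13). *Mir206* averaged 0.68 ± 0.10 (SD, n = 3) in double-heterozygous and 0.74 ± 0.08 (SD, n = 3) in null hearts. *Mir133b* averaged 1.98 ± 0.07 (SD, n = 3) in double-heterozygous and 2.01 ± 0.13 (SD, n = 3) in null hearts, so this cluster was dim in both and differed by no more than the spread. The 40 measured genes nearest in gene order to each locus, 20 on either side, were also read. None of them passed the study's thresholds, an unadjusted p under 0.0025 with a fold above 1.5 or below 0.5. Around *miR-1-1* the log2 fold changes ran between -0.33 and 0.25 with a median of -0.057, and around *miR-1-2* between -0.26 and 0.50 with a median of -0.012. *Gata5* and *Gata6*, cardiac transcription factors among the nearest genes of the 2 loci, differed by 0.02 and -0.22.

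**Figure D1:**
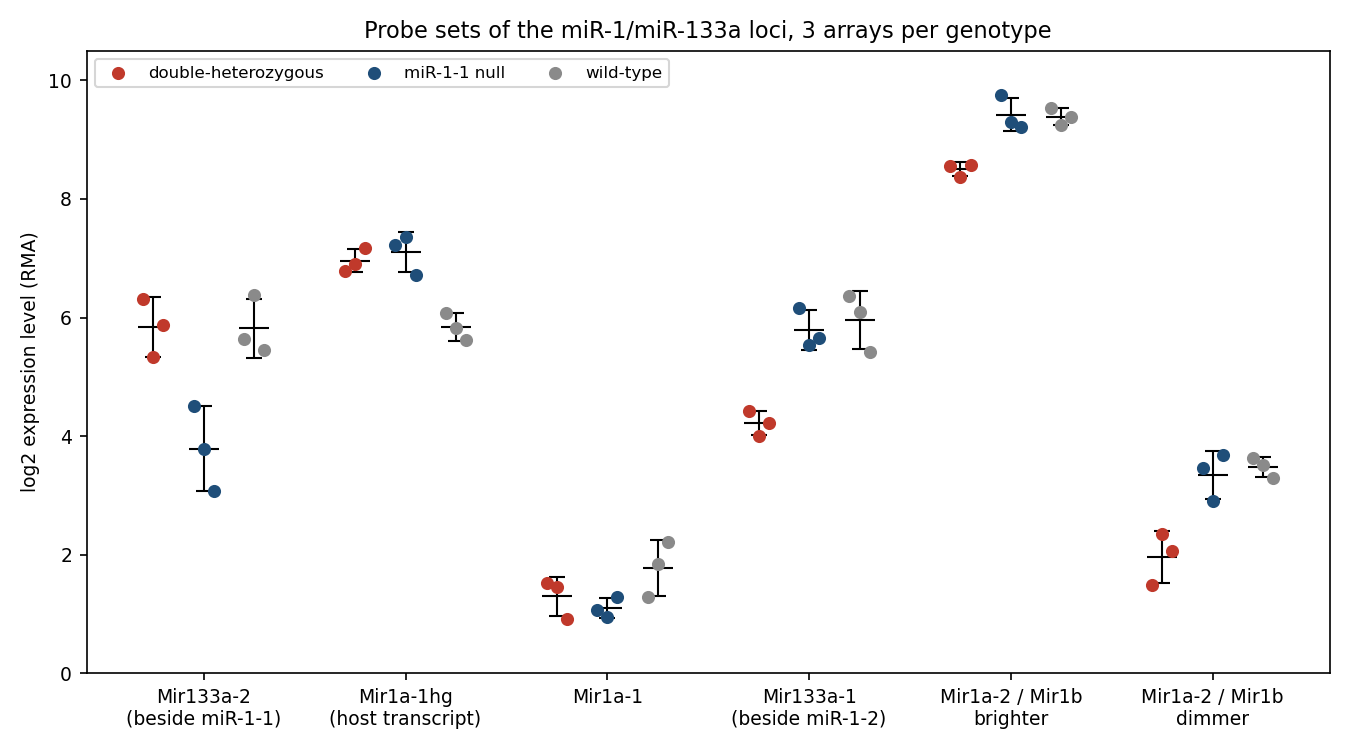
Log2 expression level (y axis) of genes in the *miR-1* and *miR-133a* clusters on each of the 3 arrays per genotype (points), with the mean and SD in black. *Mir133a-2* is at 5.84 in double-heterozygous and 3.79 in null hearts on average, and *Mir133a-1* at 4.22 and 5.79, whereas *Mir1a-1hg* and *Mir1a-1* overlap between these genotypes.

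Across the genome the thresholds picked out mainly higher levels in double-heterozygous hearts. Of 22180 genes, 65 were higher (0.293%) and 2 were lower (0.00902%), the lower ones being *Mir133a-1* and *Stfa3*, a stefin A cysteine protease inhibitor. The thresholds are not symmetric, and with the same fold of 1.5 asked of both directions 8 genes were lower (0.0361%). No gene passed a Benjamini-Hochberg adjusted p under 0.05 in limma (0.0%), the smallest adjusted p being 0.117. At an unadjusted p under 0.05 there were 797 genes higher (3.59%) and 841 lower (3.79%), and 953 (4.3%) had all double-heterozygous arrays above all null arrays and 1275 (5.75%) all of them below. The count of higher genes depended on single arrays. It was 42 without null replicate 6 and 43 without null replicate 4, and of the 67 genes called in all, 36 remained without null replicate 6 and 38 without null replicate 4.

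The genes called higher were mostly dim. Among the 65 were 21 olfactory receptor genes, 12 predicted gene models, 6 microRNA precursors, 2 other small RNAs and 24 other genes. Their median level was 2.32, against 2.88 for all genes, and 52 of them averaged below a log2 level of 4 over the 9 arrays. The wild-type mean was nearer to the null mean for 55 of the 65 and nearer to the double-heterozygous mean for 10, among them *Mir133a-2*. Levels near background were judged against the level that 3 in 4 chemosensory receptor genes did not exceed. It was 1.95 in double-heterozygous and 1.78 in null hearts, and 62 of the 65 exceeded it in at least 1 of these genotypes. Genes called higher can exceed it through double-heterozygous hearts alone, as *Speer8-ps1* and *Ces3a* did, with null means of 1.35 and 1.62. The count therefore does not show that they stood above background in null hearts. The level itself comes from the family that holds 21 of the 65.

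Change depended on level across all genes. Genes with a mean log2 level up to 2 had a median log2 fold change of 0.032, and 58.2% of these 7309 genes were above 0. Between levels of 5 and 6 the median was -0.079 and 27.5% of 2322 genes were above 0, and between 6 and 7 the median was -0.080. Brighter genes thus sat slightly lower in double-heterozygous hearts as a body, and dim genes slightly higher. After a further cyclic loess normalization the medians of these 3 ranges were 0.005, -0.012 and -0.007, so that little of the tilt remained. The medians of gene lists below are to be read against the median of genes at their level and not against 0.

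**Figure D2:**
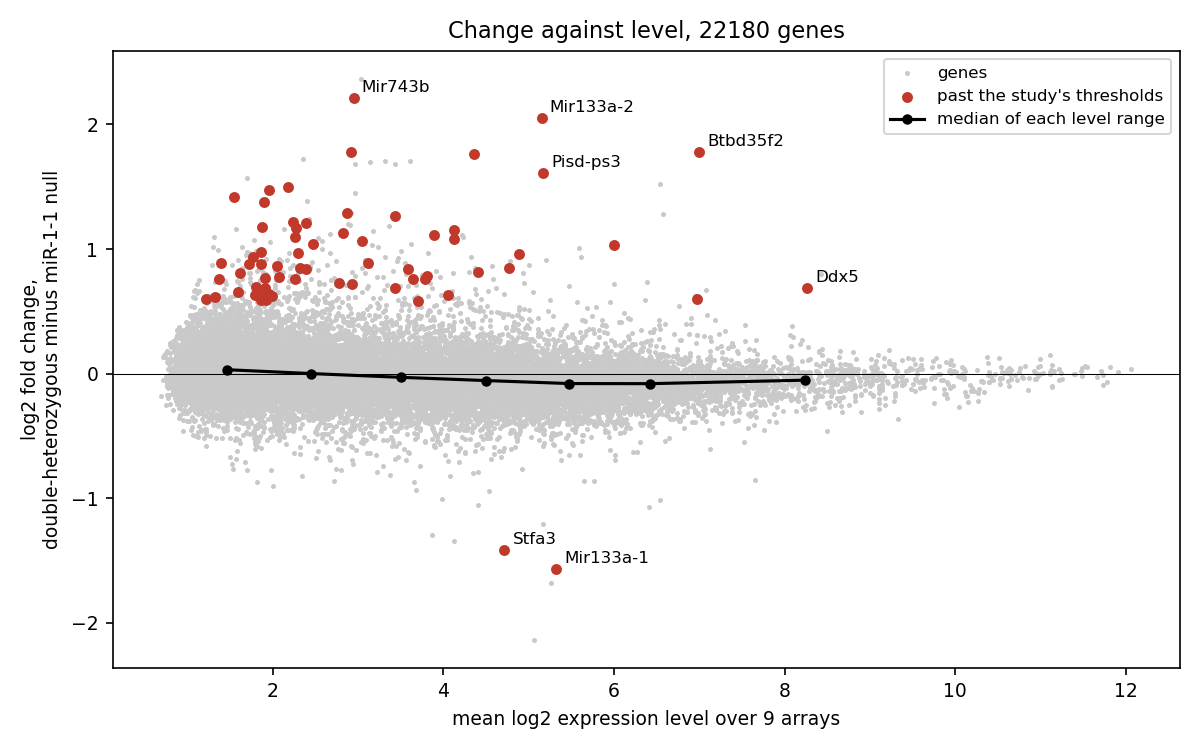
Log2 fold change of double-heterozygous over *miR-1-1* null hearts (y axis) against the mean log2 level over 9 arrays (x axis) for 22180 genes (grey), with the genes past the study's thresholds in red and the median of each level range in black. The 65 genes called higher are concentrated at low levels, the 2 called lower are *Mir133a-1* and *Stfa3*, and the black line falls below 0 for brighter genes.

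Of the genes outside the clusters with the largest higher levels, several belong to rodent families expressed mainly in testis or epithelia. *Btbd35f2*, a member of a multi-copy BTB-domain family, read 8.83, 8.08 and 7.73 in double-heterozygous hearts, against 6.21, 7.28 and 5.82 in null hearts. The arrays of the 2 genotypes did not overlap, and the log2 fold change of 1.78 (standard error 0.39) had a limma adjusted p of 0.413. *Btbd35f2* lost its call without null replicate 4 or 6 and without double-heterozygous replicate 7 or 8, at log2 fold changes between 1.47 and 1.84. It also lost it without wild-type replicate 3, in a fit of the 6 arrays alone and with *Xist* presence as a covariate, at 1.78, 1.78 and 1.70. A dimmer relative, *Btbd35f28*, was higher by 0.64 (standard error 0.13), and its null arrays, between 1.32 and 1.62, were below background. *Speer4cos* and *Speer8-ps1*, pseudogenes of the spermatogenesis-associated Speer family, differed by 1.76 (standard error 0.32) and 1.47 (standard error 0.20). *Speer8-ps1* was at 3.03, 2.61 and 2.83 in double-heterozygous hearts, against 1.53, 1.23 and 1.29 in null hearts. Its null arrays lay below the background level of 1.78, so it stood above background in double-heterozygous hearts alone and the size of its difference is uncertain. *Pisd-ps3*, a pseudogene of the mitochondrial phosphatidylserine decarboxylase, was brighter, at 5.87, 6.33 and 6.52 in double-heterozygous hearts, against 4.94, 4.20 and 4.75 in null hearts, a log2 fold change of 1.61 (standard error 0.31). Probe sets of such families may read several near-identical copies, so which copy differed is uncertain.

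*Csnka2ip*, *Sprr2e*, *Clrn2*, *Csn2*, *Ces3a*, *Trim43c* and *Ces1e* followed, with log2 fold changes of 1.21, 1.11, 1.04, 0.89, 0.87, 0.85 and 0.85 (standard errors between 0.13 and 0.25). They encode a testis-specific partner of casein kinase, a proline-rich protein of the cornified envelope, a clarin of the inner ear, the milk protein beta-casein, a tripartite-motif protein of the early embryo and a pair of carboxylesterases. All of these read between 2.46 and 5.39 in double-heterozygous hearts. The null mean of *Ces3a*, 1.62, was below background, so the size of its difference is uncertain too. The protamine gene *Prm1*, which packs sperm DNA, is another of the 65, at 2.90, 3.03 and 2.83 in double-heterozygous hearts, against 2.13, 2.26 and 1.85 in null hearts. *Prm1*, *Cenpk*, *Ocel1*, *Sp110* and *Btbd35f28* stand outside the rule for named genes and were picked with their values in view.

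*Rab26os*, a transcript antisense to the vesicle-trafficking gene *Rab26*, behaved unlike most of this group. It read 6.31, 6.05 and 6.71 in double-heterozygous hearts, against 5.01, 5.54 and 5.44 in null hearts, and averaged 6.32 ± 0.21 (SD, n = 3) in wild-type hearts. As for *Mir133a-2*, the null arrays stood apart while the double-heterozygous and wild-type means were close. The log2 fold change was 1.03 (standard error 0.20, limma adjusted p = 0.322). *Ocel1*, an occludin-domain gene, had the same order, at 4.70, 4.53 and 4.75 in double-heterozygous hearts, 3.92, 3.81 and 3.79 in null hearts and a wild-type mean of 4.72.

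*Ddx5*, a DEAD-box RNA helicase that takes part in splicing and in microRNA processing, was the brightest gene called higher. It read 8.59, 8.61 and 9.01 in double-heterozygous hearts, against 8.07, 8.16 and 7.92 in null hearts and 7.85, 8.16 and 8.04 in wild-type hearts. All 3 double-heterozygous arrays were above the other 6, by a 1.61-fold higher level than null hearts (log2 fold change 0.69, standard error 0.14, limma adjusted p = 0.361). *Ddx5* lost the call without null replicate 4 or 6 or double-heterozygous replicate 9, at 0.70, 0.62 and 0.55. *Cep95*, a centrosomal protein gene that follows *Ddx5* in gene order with only a microRNA gene between them, read 4.90, 4.74 and 4.51 in double-heterozygous hearts, against 4.05, 4.10 and 4.47 in null hearts. Its log2 fold change was 0.51 (standard error 0.15), short of the thresholds, and *Cep95* was looked up after the value of *Ddx5* was seen. *Cenpk*, a kinetochore protein gene, was also called, at 3.92, 4.27 and 4.44 in double-heterozygous hearts, against 3.04, 3.47 and 3.76 in null hearts. *Sp110*, an interferon-inducible nuclear body gene, was higher by 0.59 (standard error 0.14).

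**Figure D3:**
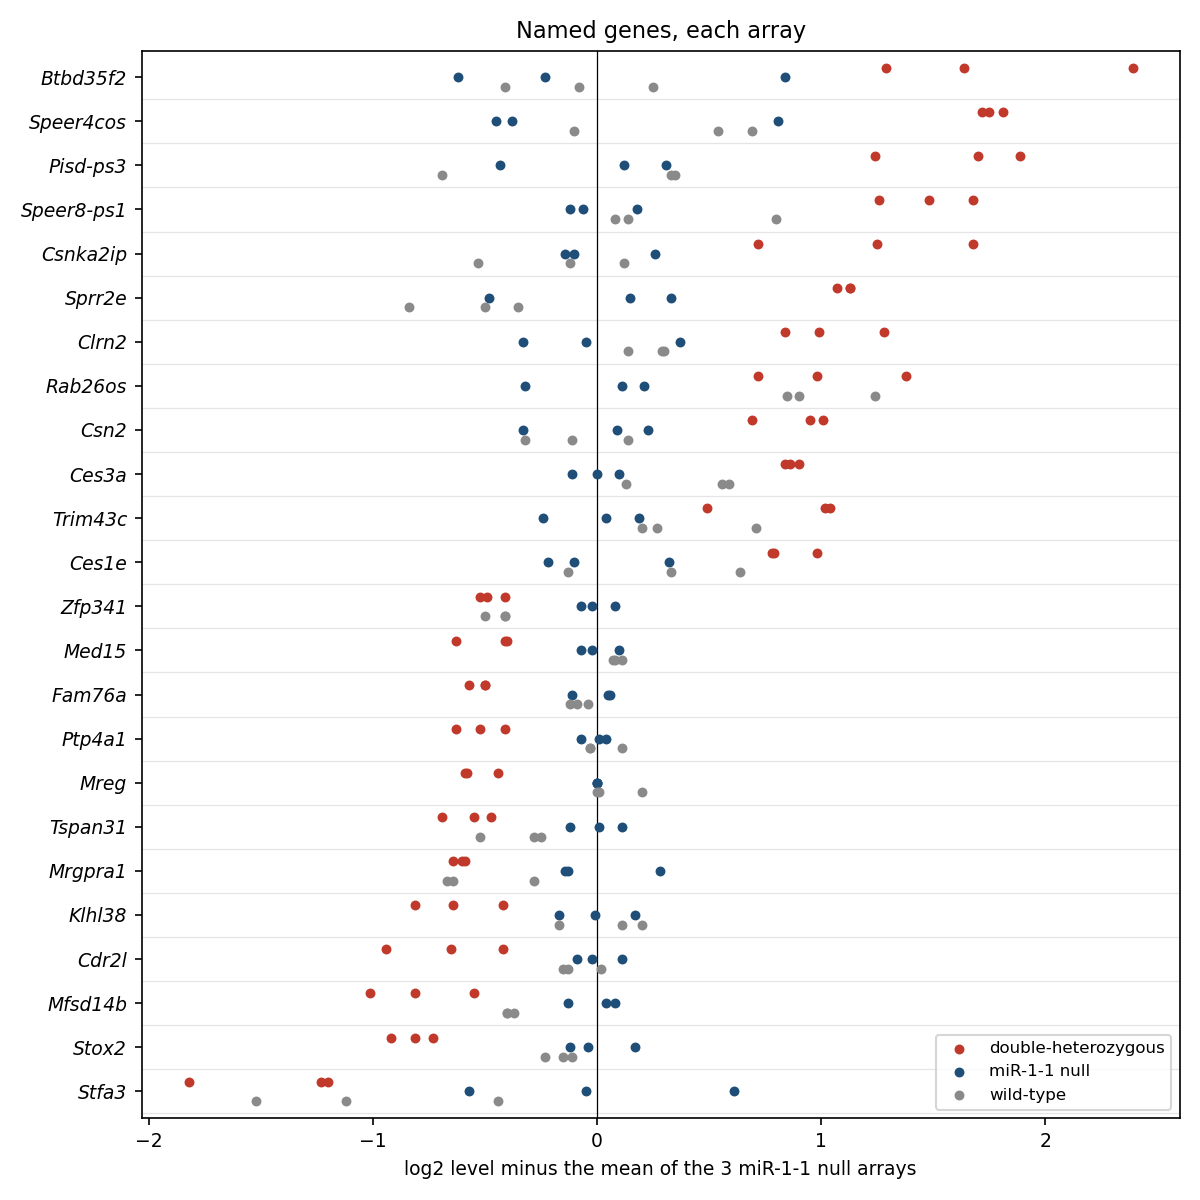
Log2 level of each array minus the mean of the 3 *miR-1-1* null arrays (x axis) for the 12 named genes with the largest higher levels in double-heterozygous hearts and 12 named genes that were lower (y axis), with 3 points per genotype. No double-heterozygous point crosses a null point in any of the 24 genes, which the rule required, and all wild-type points of *Rab26os*, *Ces3a*, *Trim43c*, *Mfsd14b*, *Mrgpra1*, *Zfp341* and *Tspan31* lie apart from the null points, on the side of the double-heterozygous points.

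Past an unadjusted p under 0.0025 and a fold of 1.5, fewer genes were lower than higher in double-heterozygous hearts, most of them short of the study's limit. At an unadjusted p under 0.05, or by lack of overlap, more genes were lower than higher, as given above. *Stfa3* read 4.30, 3.71 and 4.33 in double-heterozygous hearts, against 6.14, 5.48 and 4.96 in null hearts. The null arrays stood above both other genotypes on average, with a wild-type mean of 4.50, and the log2 fold change was -1.41 (standard error 0.34, limma adjusted p = 0.451). *Stfa3* no longer met the thresholds without null replicate 4 or 5, without any of the 3 double-heterozygous arrays or without wild-type replicate 2, at log2 fold changes between -1.52 and -1.11. It also lost its call after cyclic loess, in a fit of the 6 arrays alone and without the *Xist*-carrying arrays, at -1.36, -1.41 and -1.51. *Stfa3* belongs to a family of near-identical stefin genes. *Stox2*, a winged-helix gene, had the smallest p of the genes lower, at 3.67, 3.59 and 3.48 in double-heterozygous hearts, against 4.36, 4.28 and 4.57 in null hearts and 4.29, 4.17 and 4.25 in wild-type hearts. Its log2 fold change was -0.82 (standard error 0.10, limma adjusted p = 0.117), which is a fold of 0.565 and therefore outside the study's limit of 0.5. *Mfsd14b*, a membrane transporter of the major facilitator family, was at 3.99, 3.79 and 4.25 in double-heterozygous hearts, against 4.84, 4.67 and 4.88 in null hearts, with the wild-type arrays between them at 4.40, 4.43 and 4.40. *Cdr2l*, *Klhl38* and *Mrgpra1* were lower by log2 differences of -0.67, -0.62 and -0.61, each with a standard error of 0.14.

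*Klhl38*, a muscle kelch-like gene, lies beside *Fbxo32*, the muscle ubiquitin ligase atrogin-1, with no protein-coding gene between them. *Klhl38* read 4.47, 4.08 and 4.25 in double-heterozygous hearts, against 4.88, 4.72 and 5.06 in null hearts. *Fbxo32* read 4.94, 5.14 and 4.76 in double-heterozygous hearts, against 5.59, 5.42 and 5.70 in null hearts, a log2 fold change of -0.62 (standard error 0.17) that missed the p threshold. Neither overlapped between the genotypes, and the null means of both were close to the wild-type means.

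Another 6 genes filled the list of 12 lower genes in order of p, at folds short of 1.5. These were *Fam76a*, *Mreg*, *Ptp4a1*, *Zfp341*, *Tspan31* and *Med15*, with log2 fold changes between -0.57 and -0.47 and standard errors between 0.09 and 0.11. *Med15*, a subunit of the Mediator complex, read 4.61, 4.38 and 4.60 in double-heterozygous hearts, against 4.99, 4.94 and 5.11 in null hearts. *Ptp4a1*, a prenylated tyrosine phosphatase, read 4.05, 4.16 and 4.27 in double-heterozygous hearts, against 4.69, 4.61 and 4.72 in null hearts. Wild-type hearts lay with the null hearts for *Fam76a*, *Mreg*, *Ptp4a1* and *Med15*, and for *Zfp341* they lay with the double-heterozygous hearts, at 3.55, 3.46 and 3.55. The log2 fold change of *Zfp341* was -0.47, but -0.32 with the mean of its probe sets. Of the 24 named genes, 12 kept an unadjusted p under 0.0025 when each of the 6 arrays was left out in turn, 6 of them higher and 6 lower. The same arrays had selected these genes, so this shows only how far each rested on a single array. The directions cannot be compared by it, because the 6 genes filled in were taken by smallest p and the others by fold. The 12 that kept it were *Speer4cos*, *Speer8-ps1*, *Sprr2e*, *Clrn2*, *Rab26os*, *Ces3a*, *Stox2*, *Mfsd14b*, *Fam76a*, *Mreg*, *Ptp4a1* and *Zfp341*. The others were weakest without null replicate 4 (*Btbd35f2*, *Cdr2l*), null replicate 6 (*Csnka2ip*, *Ces1e*, *Klhl38*, *Tspan31*, *Med15*), double-heterozygous replicate 7 (*Trim43c*), 8 (*Stfa3*) or 9 (*Pisd-ps3*, *Csn2*, *Mrgpra1*).

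Among the genes called higher were 6 microRNA precursors. Of 483 microRNA precursor genes, 6 were called higher (1.24%, against 0.293% of all genes), *Mir133a-2* among them, and *Mir133a-1* alone was called lower. An unadjusted p under 0.05 was reached by 36 in the higher and 19 in the lower direction. These were 7.45% and 3.93%, against 3.59% and 3.79% of all genes. Of genes below a level of 2 outside the chemosensory receptors, 4.64% were higher and 1.63% lower at that p. The median level of the 483 was 1.66, and their median log2 fold change was 0.021, beside 0.032 for all genes with a level up to 2. After cyclic loess it was -0.003, with 239 of the 483 above 0. The mature sequences of 3 of these precursors outside the clusters are shown to set their seeds beside those above, with the seed in capitals. RefSeq (GRCm38.p6) places *miR-743b* at chrX:66777266-66777287 on the minus strand, *miR-3962* at chr1:194822035-194822054 on the plus strand and *miR-344d* of *Mir344d-2* at chr7:61685279-61685300 on the minus strand.
mmu-miR-743b-3p: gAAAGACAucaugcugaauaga
mmu-miR-3962: aGGUAGUAguuuguacauuu
mmu-miR-344d-3p: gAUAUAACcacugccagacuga
None of the 3 seeds is that of *miR-206* or *miR-133b*. *Mir743b* read 5.65, 4.05 and 3.47 in double-heterozygous hearts, against 1.77, 2.28 and 2.49 in null hearts. Its highest value belongs to double-heterozygous replicate 7, the only *Xist*-carrying array of the 6, and its part in the difference was not tested. *Mir3962* read 2.77, 1.57 and 2.48 in double-heterozygous hearts, against 0.98, 0.91 and 0.69 in null hearts, where it was below background, and *Mir344d-2* read 4.34, 3.92 and 4.14 in double-heterozygous hearts, against 3.55, 2.99 and 3.34 in null hearts. These small RNAs were picked with their values in view.

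Small nucleolar and Cajal body RNAs, which guide modification of ribosomal and spliceosomal RNA, differed in both directions. Of 78 measured, 26 were above 0 and the median was -0.077, or -0.134 without double-heterozygous replicate 9. *Snord104* passed the thresholds at 7.22, 7.58 and 7.25 in double-heterozygous hearts, against 6.63, 6.65 and 6.97 in null hearts. *Snora68* read 2.00, 2.03 and 2.38 in double-heterozygous hearts, against 2.75, 2.66 and 2.63 in null hearts, a log2 fold change of -0.54 (standard error 0.13) that did not reach the fold asked. *Snord104* was picked with its value in view.

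Olfactory and vomeronasal receptor genes, chemosensory receptors with no settled role in heart, had a median above that of all genes. Of 1394 measured, 921 were above 0 (66.1%, against 45.4% of all genes). In this family 21 were called higher (1.51%, against 0.293% of all genes) and none lower. The median log2 fold change of the 1394 was 0.085. Their mean level was between 1.68 and 1.70 in the double-heterozygous arrays, between 1.45 and 1.62 in the null arrays and between 1.43 and 1.59 in the wild-type arrays, so the double-heterozygous arrays lay above both other genotypes. Among genes with a mean level below 2, 9.07% of these receptors and 4.64% of all other genes had an unadjusted p under 0.05 in the higher direction, with medians of 0.062 and 0.027. At that level 12 of 1124 receptors and 12 of 6185 other genes were called higher. After cyclic loess 846 of the 1394 were above 0.

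No gene of the lists of heart muscle, metabolism, signalling and cell types passed the thresholds outside the clusters, apart from *Ddx5* among the consensus predicted *miR-1* targets. The lists were therefore described by their medians and by members with an unadjusted p under 0.05, a mark that 3.59% of all genes reached in the higher and 3.79% in the lower direction.

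The cell cycle genes were the list with the highest median, 0.183, although genes of their level had medians near -0.08. Of 30 measured, 24 were above 0, and 4 reached the mark in the higher and 1 in the lower direction. *Rrm2*, a subunit of ribonucleotide reductase, read 7.04, 7.59 and 6.92 in double-heterozygous hearts, against 6.55, 6.47 and 6.67 in null hearts (log2 fold change 0.62, standard error 0.20, limma adjusted p = 0.599). *Bub1b* and *Bub1*, kinases of the spindle checkpoint, each differed by 0.64 (standard error 0.27). *Bub1* read 4.91, 5.27 and 5.03 in double-heterozygous hearts, against 4.19, 4.54 and 4.56 in null hearts, and *Bub1b* overlapped between the genotypes by having equal values on its lowest double-heterozygous and highest null arrays. *Tyms*, thymidylate synthase, reached it at 0.22. *Pcna*, the DNA polymerase clamp, and *Cdk1*, the mitotic kinase, did not overlap either, with differences of 0.29 and 0.34 that missed the mark. *Ccnd1*, the G1 cyclin D1, ran the other way, at 5.77, 6.14 and 6.08 in double-heterozygous hearts, against 6.29, 6.43 and 6.57 in null hearts (log2 fold change -0.43, standard error 0.13). The wild-type mean of *Ccnd1* was 5.99, close to that of double-heterozygous hearts, and that of *Rrm2* was 7.11.

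The higher level of the cell cycle list rested in part on a single null array. The mean level over the list was between 5.78 and 5.94 in the double-heterozygous arrays, between 5.48 and 5.88 in the null arrays and between 5.52 and 6.01 in the wild-type arrays, and the lowest null value was that of replicate 4. Without null replicate 4 the list median was 0.076 and without null replicate 6 it was 0.281. The median after cyclic loess was 0.252. Null replicate 4, at 5.48, lay below each of the other 8 arrays.

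**Figure D4:**
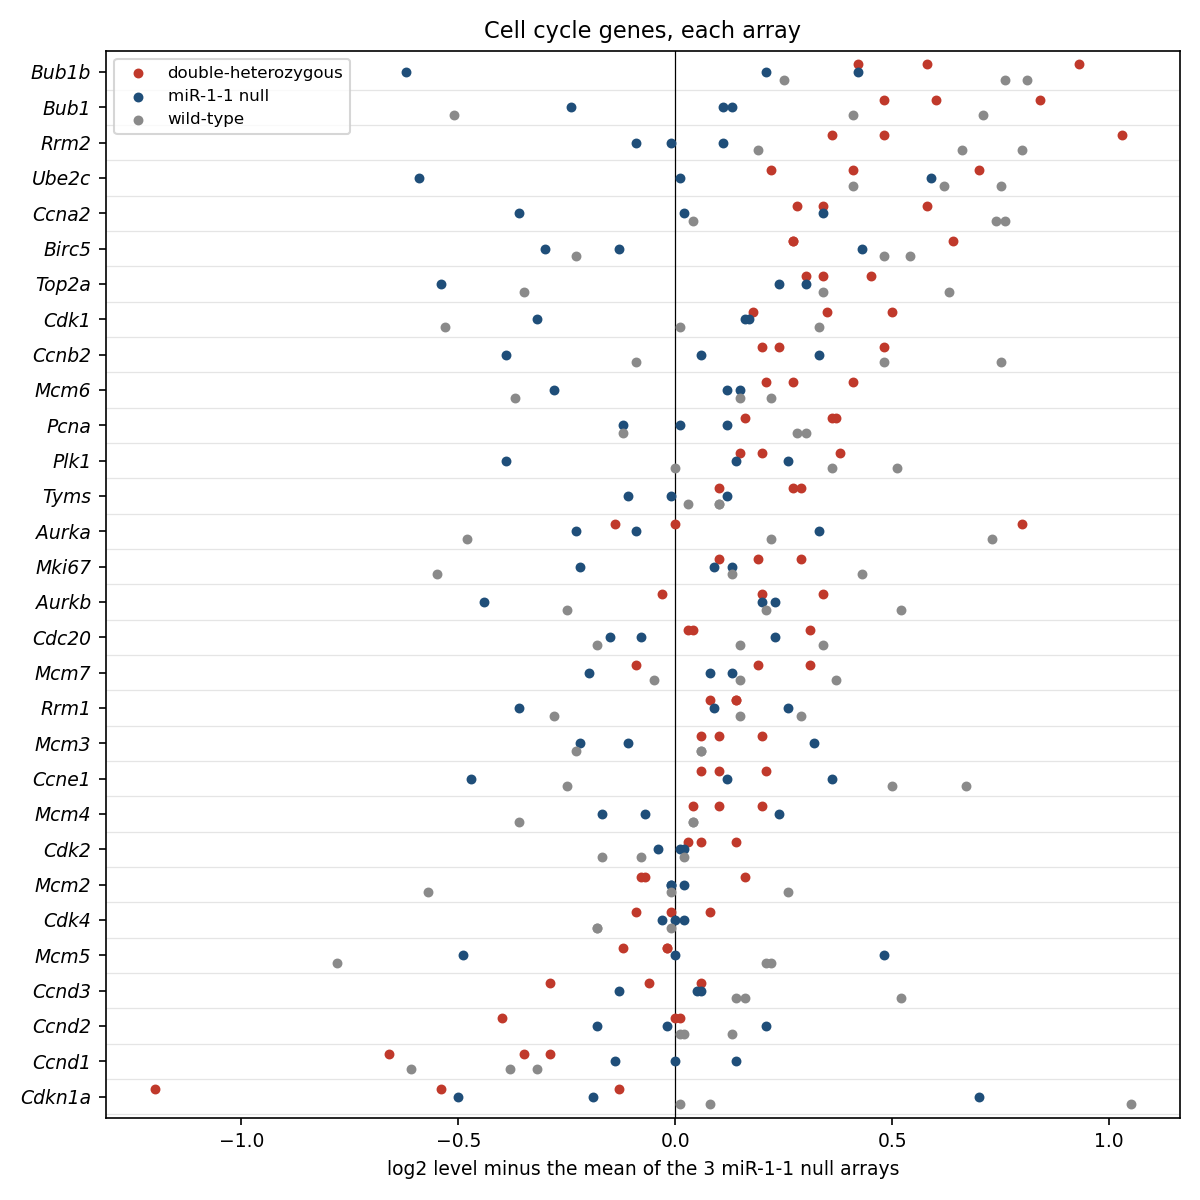
Log2 level of each array minus the mean of the 3 *miR-1-1* null arrays (x axis) for the 30 cell cycle genes measured (y axis), with 3 points per genotype. For most genes the double-heterozygous points lie to the right of 0 of the null mean, and those of *Ccnd1* and *Cdkn1a* lie to its left.

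The contractile filament and respiratory chain genes had medians close to 0. Of 21 thick and thin filament genes 10 were above 0, with a median of -0.011, and *Myh7b* alone reached the mark, at 0.28 (standard error 0.10). *Myh6*, *Tnnt2* and *Myl2*, which encode the alpha heavy chain, cardiac troponin T and the ventricular light chain, differed by 0.03, 0.02 and 0.04. The 72 respiratory chain genes had a median of -0.004 and none reached the mark. Of these 47.2% were above 0, where genes at levels above 7 had a median of -0.052 and 30.9% above 0. After cyclic loess the respiratory chain median was 0.043, with 51 of the 72 above 0, and the filament median was 0.014, beside -0.001 for all genes. Of 23 smooth muscle contractile genes, 8 were above 0 (median -0.055) and only *Vcl*, vinculin, reached the mark, at -0.24. Without double-heterozygous replicate 8 the smooth muscle median turned to 0.005 and the respiratory chain median to 0.009. Of 24 Z-disc and linker genes 18 were below 0 (median -0.085, or -0.130 without null replicate 5), and 5 (20.8%) were lower without overlap, against 5.75% of all genes. The median level of this list was 7.36, against 2.88 for all genes, and the share without overlap among genes at its level was not counted. Genes at levels above 7 had a median of -0.052, and after cyclic loess the list median was -0.028. Among the 5 genes without overlap *Cavin4*, a muscle caveolar protein gene, read 7.04, 7.04 and 6.83 in double-heterozygous hearts, against 7.29, 7.29 and 7.50 in null hearts (log2 fold change -0.39, standard error 0.10). Of 19 muscle turnover and membrane repair genes 13 were below 0, with a median of -0.121, or -0.039 without double-heterozygous replicate 9. At the mark were 3 in the lower direction (15.8%), *Fbxo32* among them, and 1 in the higher. *Smyd1*, a muscle histone methyltransferase, and *Cav3*, muscle caveolin, differed by -0.38 and -0.22, both without overlap.

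Of 24 ion channel genes measured, 17 were below 0 with a median of -0.149, where 36.4% of all genes at levels between 4 and 5 were above 0 and their median was -0.055. In this list 5 genes reached the mark in the lower direction and none in the higher. *Kcnj12*, an inward rectifier of the resting current, read 4.85, 4.60 and 4.56 in double-heterozygous hearts, against 5.11, 5.10 and 5.00 in null hearts (log2 fold change -0.40, standard error 0.12, limma adjusted p = 0.546). *Kcnj5*, a subunit of the acetylcholine-gated channel, and *Kcnq1*, of the slow delayed rectifier, differed by -0.44 and -0.34, and both overlapped. Genes of fatty acid use had a median of -0.130 with 23 of 28 below 0 and 4 at the mark, among them *Slc25a20*, the carnitine carrier (-0.39), *Pdk4*, a kinase that holds back glucose oxidation (-0.46), and *Cpt1a*, the liver form of carnitine palmitoyltransferase (-0.28). *Slc25a20* read 5.57, 6.01 and 5.71 in double-heterozygous hearts, against 6.16, 6.14 and 6.16 in null hearts. The lipogenic genes *Fasn*, *Scd4* and *Dgat2* differed by -0.40, -0.69 and -0.58, within a list whose median was -0.157. After cyclic loess the medians of these 3 lists were -0.099, -0.076 and -0.107, beside -0.001 for all genes. The fatty acid median was -0.071 without null replicate 4, and the lipogenic median was -0.038 without double-heterozygous replicate 8.

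Cardiac transcription factors and growth factor genes also had medians below 0. Of 19 cardiac transcription factors 15 were below 0 (median -0.187), and 3 reached the mark, *Irx1*, *Irx3* and *Tbx3*, factors of the trabecular wall and conduction system, at -0.46, -0.56 and -0.22. *Irx1* read 2.19, 2.69 and 2.46 in double-heterozygous hearts, against 2.77, 2.87 and 3.08 in null hearts, and *Irx3* overlapped. *Clu*, clusterin, had the smallest p of the atrial and natriuretic list, at 6.45, 6.15 and 6.45 in double-heterozygous hearts, against 6.72, 6.90 and 6.84 in null hearts and a wild-type mean of 6.29 (log2 fold change -0.47, standard error 0.11, limma adjusted p = 0.446). The transcription factor median was -0.111 without double-heterozygous replicate 8. *Mef2d*, a muscle transcription factor, differed by -0.32 without overlap, and *Srf*, the serum response factor, by -0.31. Of 14 insulin-like growth factor genes 13 were below 0 (median -0.189), led by *Irs1*, an insulin receptor substrate (-0.36), *Igfbp6*, a binding protein (-0.35), and *Igf1r*, the receptor (-0.33). The immediate early genes had the lowest median, -0.230, with *Klf4* at -0.36 and *Zfp36*, which destabilizes cytokine messages, at -0.51. Without null replicate 6 the immediate early median was -0.117 and the growth factor median -0.098.

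The remaining lists held few members at the mark. The 7 creatine kinase system genes had a median of 0.135 with none at the mark, and so had the 29 interferon-inducible genes (0.077), the 29 chemokine and cytokine genes (0.074), the 16 calcium handling genes (-0.095), the 33 collagen and matrix genes (-0.079), the 21 glycolysis genes (-0.071), the 21 Notch pathway genes (-0.080) and the 23 clustered protocadherin genes (0.037). Of 19 aldehyde dehydrogenase genes, *Aldh1l2*, a mitochondrial folate enzyme gene, was at -0.55 in a list with a median of -0.083. The 66 cytosolic ribosomal protein genes had a median of -0.052, with 1 at the mark in the higher and 4 in the lower direction, and the 47 histone genes had a median of -0.028, with 1 in each. Single arrays moved several of these medians. Without double-heterozygous replicate 8 the protocadherin median was -0.018 and the ribosomal one -0.021, and without replicate 7 the collagen median was -0.144 and the glycolysis median -0.031. Without double-heterozygous replicate 9 the creatine kinase median was 0.081 and the histone median -0.066. Without null replicate 5 the interferon median was 0.023 and the chemokine median 0.043, and without null replicate 6 the histone median was 0.029 and the aldehyde dehydrogenase median -0.036.

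Genes reported elsewhere as *miR-1* targets had a median close to that of genes at their level. Of 29 measured, 23 were below 0 with a median of -0.098, and 3 reached the mark, *Ccnd1*, *Igf1r* and *Spred1*, a brake on Ras signalling (-0.26). *Hand2*, *Gja1* and *Hdac4*, a transcription factor, the gap junction protein connexin 43 and a histone deacetylase, differed by -0.12, -0.15 and -0.13. Of 19 reported *miR-133a* targets 17 were below 0 (median -0.131), and only *Igf1r* reached the mark, with a median of -0.047 without null replicate 6. The consensus of predicted *miR-1* targets is the study's own list of 89 genes named by all 3 of its prediction methods. The study drew it only from genes whose level in late embryonic hearts lacking all *miR-1* was no lower than in wild-type hearts. It is therefore not an unselected set of predicted targets. The list held 85 measured genes, 31 above and 54 below 0, with a median of -0.066, or -0.027 without null replicate 6. Of these *Ddx5* was called higher, *Dlg4*, a synaptic scaffold gene, was at 0.28, and *Sec63*, a translocon subunit, and *Lin7c*, a scaffold protein gene, reached the mark at -0.38 and -0.27. After cyclic loess the medians of the 3 lists were -0.036, -0.067 and -0.007, beside -0.001 for all genes. *Ddx5* is thus a predicted *miR-1* target that was higher in double-heterozygous than in null and wild-type hearts.

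**Figure D5:**
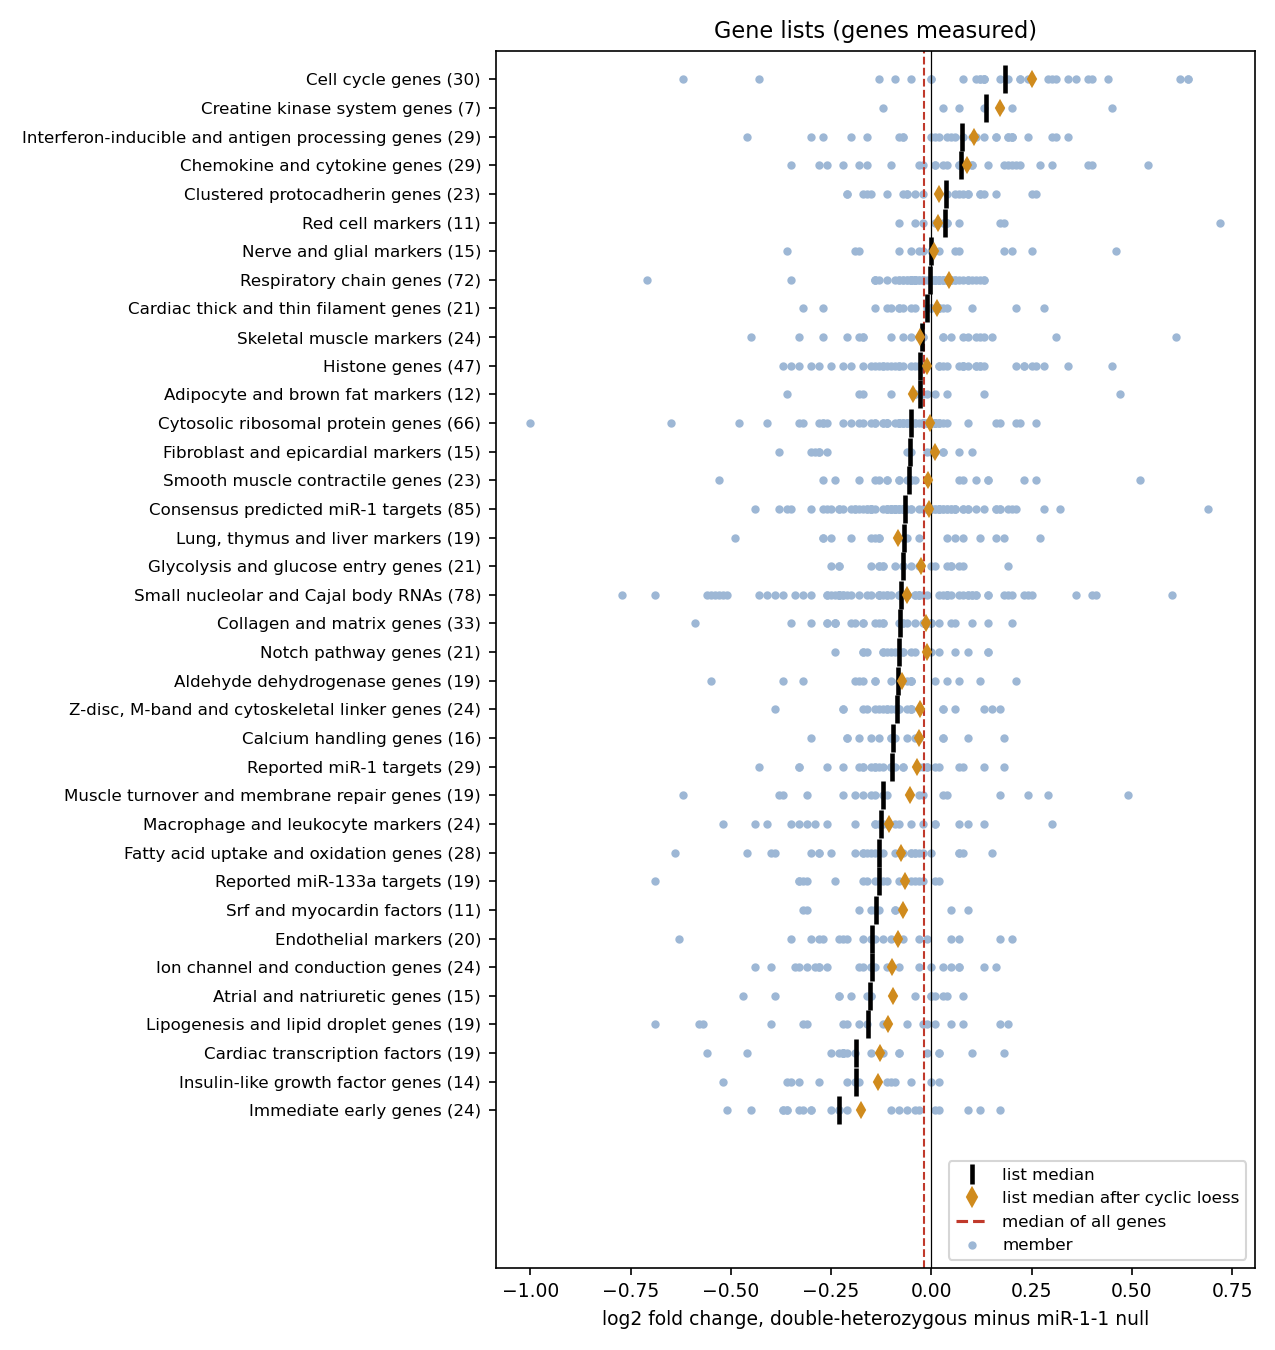
Log2 fold change of double-heterozygous over *miR-1-1* null hearts (x axis) for the members (points) of each gene list (y axis, with the number measured), the list median as a black bar, the median after cyclic loess as a diamond and the median of all genes as a dashed line. The cell cycle genes have the highest median, 0.183, and the immediate early genes the lowest, -0.230, and most diamonds lie to the right of their bars.

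Markers of other cell types were read beside these results, and their part in the differences was not tested. The 10 heart markers averaged between 9.26 and 9.32 in the double-heterozygous arrays and between 9.23 and 9.33 in the null arrays, and these ranges overlapped. Macrophage and leukocyte markers averaged between 3.49 and 3.53 in double-heterozygous and between 3.57 and 3.78 in null hearts, without overlap, and 18 of 24 were below 0, with *Lyz2*, *Tyrobp* and *Csf1r* at -0.52, -0.41 and -0.44. Endothelial markers averaged between 5.47 and 5.55 in double-heterozygous and between 5.58 and 5.79 in null hearts, also without overlap. In this list 16 of 20 were below 0, with *Vwf*, *Eng* and *Apln* at -0.28, -0.30 and -0.63. Most genes at levels between 5 and 6 were below 0 too, with 27.5% above 0 and a median of -0.079. The endothelial median was -0.147. After cyclic loess it was -0.083, beside -0.012 for genes at those levels. Fibroblast and epicardial markers overlapped, at 4.61 to 4.75 in double-heterozygous and 4.73 to 4.92 in null hearts, with *Wt1* at -0.30. Markers of skeletal muscle, fat, red cells, nerve and of lung, thymus and liver averaged at most 3.54 in every double-heterozygous and null array, with *Myh8*, a developmental muscle myosin, at 4.31, 4.36 and 4.33 in double-heterozygous hearts, against 3.18, 3.93 and 4.06 in null hearts. The log2 fold change of *Myh8* was 0.61, but 0.29 with the mean of its probe sets and as low as 0.34 with a single array left out. Pups carrying *Xist* were not balanced, since *Xist* was at 8.31 in double-heterozygous replicate 7 and between 1.22 and 1.96 in the other 5 arrays. With that array left out 63 genes were higher and 3 lower when the *Xist*-carrying wild-type array was left out too, and 30 of the 67 genes called remained, with *Mir133a-2* at 1.81 and *Mir133a-1* at -1.67, of which *Mir133a-1* kept its call.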

How the data were processed

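Whole-heart RNA was measured on 9 Affymetrix mouse Gene ST 2.0 arrays, 3 per genotype. The values deposited by the authors are log2 levels of each probe set after RMA. RMA, with version 1.12.0 of Affymetrix Power Tools, comes from the submitters' processing notes. These values were used unchanged. The 41345 probe sets comprise 23521 with a single symbol, 1820 with more than 1 and 16004 without a name. Per gene the probe set with the highest mean over the 9 arrays was kept, which gave 22180 genes. Symbols were updated through gene IDs in the RefSeq table of GRCm38.p6 for 23328 probe sets. The sources used here do not name the array's own build. Arrays correlated at 0.982 to 0.988, and their number limits the precision.

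One mean per genotype was fitted to the 9 arrays with limma 3.58.1 (R 4.3.3; lmFit, contrasts.fit, eBayes), and double-heterozygous minus null was tested. Calls used the study's limits for p (0.0025, unadjusted) and fold (1.5 upward, 0.5 downward). Adjusted values are Benjamini-Hochberg over the whole gene table, with 0.05 as the limit. The fit was tested on simulated data. An exact permutation test of 3 against 3 arrays cannot go below p = 0.1. Figures were drawn with Python 3.11.15 and matplotlib 3.10.9.

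Named genes were those of the loci, the 12 largest positive and 12 largest negative changes past p under 0.0025 and a fold of 1.5, without overlap and above background, filled up in order of p, and up to 3 members per list. Predicted models, small RNAs and chemosensory or immune receptor genes were counted. The comparison and its 35 lists (877 entries, 803 measured) and 6 name-pattern lists were chosen with earlier results of these data known. Alternatives were other sets of arrays or probe sets, variance moderation, the methods' t-test, a level filter, cyclic loess, centring, array weights, other folds and *Xist* presence (as a covariate, or only arrays without it). Counts at an unadjusted p under 0.05 and the reading of unnamed probe sets were added after the data were seen.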

Additional observations from a re-analysis of the deposited data

Results flagged for a closer look

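Probe sets without a gene name, or with several, were outside the comparisons above. A probe set with no gene name was the only one of the 41345 to pass an adjusted p under 0.05 (limma, adjusted p = 0.0166 over every probe set). It read 2.85, 2.83 and 2.93 in double-heterozygous hearts, against 1.58, 1.65 and 1.45 in null hearts and 1.95, 1.85 and 1.90 in wild-type hearts, a log2 fold change of 1.31 between double-heterozygous and null hearts. Of the unnamed and shared probe sets together, 116 were higher and 17 lower in double-heterozygous hearts at the study's thresholds. What these probe sets read was not tested.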

How the results depend on the processing

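The fit gave 65 genes higher and 2 lower at the study's thresholds and 0 past an adjusted p under 0.05, although 797 higher and 841 lower genes had an unadjusted p below that value. The count of higher genes was 43 when only the 6 arrays were fitted, 9 with the methods' t-test, 26 among genes at or above the median level, 163 over every probe set and 24 at a fold of 2. Leaving out each array gave between 42 and 96 higher genes. The count of lower genes was 1 with the 6 arrays, 1 with the methods' t-test, 1 after cyclic loess, 18 over every probe set and 8 at a fold of 1.5, and between 1 and 3 with each array left out. Every probe set gave 1 past the adjusted p, and the other settings 0. No paired analysis was possible because the replicate numbers are not shared between genotypes. Of 1391 values of 78 single genes under other settings, 1332 kept their direction and side of the thresholds, 54 lost the call and 2 gained it. Many of the 78 were list members not called in the main fit, for which staying uncalled was close to fixed in advance. The 1332 are therefore no measure of how stable the calls were. Of the 67 genes called, between 36 and 43 remained when 1 of the 6 arrays was left out. Only *Eif2s3y*, a Y-linked gene at a log2 fold change of -1.68, turned, to 0.03 with *Xist* as a covariate and 0.04 without the *Xist*-carrying arrays or without double-heterozygous replicate 7 alone, and ran between -2.79 and 0.04 with each array left out. Dim probe sets and 3 arrays per genotype limit what could be called.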
